A study of Homo sapiens with 30 samples.

Results

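The collagen genes are the genes that encode the alpha chains of the collagens. They were taken as all genes whose symbol in the whole-cell count table is COL, a number, A and a number. The rule found 44 genes of 28 collagen types among the 39126 genes of that table, and all 44 carry the same Ensembl ID in the nuclear table of 55548 genes. The measurements come from RNA sequencing of Hues6, a human embryonic stem cell line, grown as QKI KO or WT cells and differentiated towards cardiomyocytes. QKI is an RNA-binding protein that regulates splicing. There were 30 libraries in 10 groups of 3. The whole-cell groups were KO and WT at D0 (pluripotent cells), KO and WT at D4 (cardiac progenitors), and KO and WT at D8 (beating cardiomyocytes). Nuclear RNA at D8 gave a further KO and a further WT group. At the start of differentiation the KO cells received 1.25 uM CHIR, an activator of Wnt signalling, and the WT cells 1.5 uM, with 1.5 ng/mL BMP4 in both, so after D0 genotype and CHIR dose cannot be told apart. The remaining 2 groups were 293xT cells, a human kidney-derived line, given siRNA to QKI or a non-targeting siRNA at 10 uM as labelled, and only their table of exon events was used. The labels do not say how the KO allele was made, how many clones were used, or that libraries of a group came from separate cultures, so the p-values cover only the spread among these libraries.

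Collagens are trimeric extracellular proteins whose chains wind into a triple helix built on the repeat Gly-X-Y, in which glycine is the only residue small enough for the centre of the helix. Fibrillar collagens form the tensile fibres of connective tissue, type IV forms the network of basement membranes, type VI forms beaded microfilaments, FACIT collagens sit on the surface of fibrils, and transmembrane collagens span the cell membrane. In the heart, fibrillar collagens are made mainly by fibroblasts, while basement membrane collagens surround each cardiomyocyte and vessel. Many collagen genes encode the helix in short exons that each hold whole Gly-X-Y repeats, so that an exon can be left out without a shift of the reading frame.

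Total counts ran between 40001076 and 89948185 per whole-cell library and between 6549676 and 15030590 per nuclear library, and levels are given as CPM (counts scaled to a common library size after TMM normalization). A gene was called where the edgeR adjusted p was under 0.05, over the 21761 genes tested in whole-cell RNA (43 collagen genes) and the 30481 tested in nuclear RNA (all 44). QKI averaged 39.4 ± 3.3 CPM in KO and 293 ± 7.4 CPM in WT at D0, and 78.2 ± 10 CPM in KO and 146 ± 8.9 CPM in WT at D4 (SD, n = 3 each; edgeR adjusted p = 7e-15 at D0 and 1.6e-07 at D4). At D8 it averaged 335 ± 5.3 CPM in the libraries labelled KO and 324 ± 42 CPM in those labelled WT (edgeR adjusted p = 0.66), and in nuclear RNA 505 ± 31 CPM in the libraries labelled KO and 159.5 ± 25.0 CPM in those labelled WT. The lower QKI level of KO at D0 and D4 was thus not seen at D8. There QKI was not called in whole-cell RNA and was higher in the nuclear libraries labelled KO. The D8 groups are named by their labels throughout. The summed level of 7 cardiomyocyte markers at D8 was 23140 to 26730 CPM in the libraries labelled KO and 8352 to 14930 CPM in those labelled WT, with none of the 7 under 1 CPM in either group. MYH6 made up most of that sum, at 18032 CPM in the libraries labelled KO and 8318 CPM in those labelled WT. Of the 7, 5 were called higher in KO, MYH7 was not called (0.12, edgeR adjusted p = 0.52), and ACTN2 was lower, at 95.5 CPM in the libraries labelled KO and 402 CPM in those labelled WT (-2.07, edgeR adjusted p = 1.6e-11). Among the 5 pluripotency markers the sums were 459.8 to 550.6 CPM in KO and 1195 to 1536 CPM in WT. Surface ectoderm and amnion markers (5 genes) summed to 57.35 to 72.78 CPM in the libraries labelled KO and 424.8 to 707.5 CPM in those labelled WT, and epicardium markers (5 genes) to 10.21 to 12.81 CPM in KO and 50.97 to 87.07 CPM in WT. Of the 5 epicardium markers, 2 were called lower in KO, 1 higher and 2 not. Endoderm markers (6 genes) summed to 279.7 to 422.6 CPM in KO and 134.7 to 211.5 CPM in WT, and smooth muscle markers (4 genes) to 1159 to 1276 CPM in KO and 673.5 to 919.0 CPM in WT. Of the 4 smooth muscle markers, 3 were called higher in KO and 1 lower. The part of these marker differences in the D8 collagen results was not tested, and fewer cells of a type and less RNA per cell cannot be told apart in bulk RNA.

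Collagen transcripts were scarce in pluripotent cells, were most abundant in the cardiac progenitors and were less abundant again in the cardiomyocytes, while COL2A1 went on rising. In WT cells the 44 genes summed to 1142 ± 106 CPM at D0, 10508 ± 858 CPM at D4 and 6475 ± 242 CPM at D8, and in KO cells to 1393 ± 86.4 CPM, 11921 ± 909 CPM and 8455 ± 406 CPM (SD, n = 3 each). Of the 43 genes tested in WT, 33 were higher and 7 lower at D4 than at D0. Of all genes tested, 81% were called there, 42% higher and 39.1% lower. At D8, 8 collagen genes were higher and 32 lower than at D4, where 68.8% of all genes were called, 35% higher and 33.8% lower. The median log2 fold change of the collagen genes was 1.79 for D4 against D0 and -1.28 for D8 against D4, beside 0.08 and 0.01 over all genes tested. In KO, 35 were higher and 5 lower at D4 than at D0, where 82.6% of all genes were called, 44.1% higher and 38.5% lower. At D8, 9 were higher and 31 lower than at D4, where 75% of all genes were called, 36.1% higher and 38.9% lower.

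In WT, 25 genes were called higher at D4 than at D0 and lower at D8 than at D4, among them 5 of the 6 type IV genes. COL4A6 measured 43.9, 42.4 and 35.96 CPM in WT at D0, 1194, 1122 and 998 CPM at D4 and 722, 623 and 597 CPM at D8. COL9A2, a chain of the FACIT collagen IX of cartilage fibrils, measured 3.44, 3.94 and 2.63 CPM in WT at D0, 324, 308 and 309.7 CPM at D4 and 16, 12.3 and 12.3 CPM at D8. Its D4 level stands far above both other days. Another 6 genes rose at both steps (COL2A1, COL11A2, COL15A1, COL16A1, COL21A1 and COL22A1). COL2A1, the chain of the cartilage fibril collagen II, measured 6.28, 7.11 and 5.55 CPM in WT at D0, 319, 299 and 387 CPM at D4 and 2201, 2306 and 2191 CPM at D8. Its log2 fold changes were 5.73 ± 0.13 (SE; adjusted p = 4.6e-19, edgeR) at the earlier step and 2.74 ± 0.11 (SE; adjusted p = 4.2e-15, edgeR) at the later step. COL22A1, known from tissue junctions such as those of muscle with tendon, was 5.09, 5.55 and 5.37 CPM in WT at D0, 17.2, 18.6 and 19.4 CPM at D4 and 179, 169 and 132 CPM at D8. A fall and then a rise was called for COL12A1 and COL8A1, and a fall at both steps for COL4A4, COL5A3, COL8A2 and COL14A1. How many of all genes had each of these patterns was not counted. Some of these WT calls were lost when 1 library was left out. For D4 against D0, COL15A1 (1.43) was 0.79 and not called without D4 WT library 1. COL4A3 (0.76) was not called without D4 WT library 1 (0.63) or D0 WT library 3 (0.61). COL4A4 (-0.39) was not called without D0 WT library 1 (-0.40), D0 WT library 2 (-0.19), D4 WT library 1 (-0.36) or D4 WT library 3 (-0.32). For D8 against D4, COL1A1 (-0.38) was not called without D4 WT library 1 (-0.24) or D8 WT library 2 (-0.28), COL21A1 (0.46) without D4 WT library 1 (0.37), and COL28A1 (-0.78) without D8 WT library 2 (-0.57). In KO cells, COL18A1 (-0.29) was not called lower at D8 than at D4 without D4 KO library 2 (-0.20) or D8 KO library 1 (-0.26).

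Some genes came up from almost nothing. COL19A1, a FACIT collagen, had 0 counts in all 6 libraries at D0, and 996 counts over the 3 KO libraries and 821 over the 3 WT libraries at D4. With a floor of 3 counts summed over the 3 libraries, its level was at least 344-fold higher at D4 than at D0 in KO and at least 298-fold higher in WT. COL3A1, the fibrillar collagen of vessel walls and other extensible tissues, had 8 counts over the KO libraries and 1 over the WT libraries at D0 and was not called there. The ratio of levels was 7.83, with an exact 95% interval of 1.05 to 347 that covers counting error only. In WT it had 1200 counts at D4 against that 1 count at D0, a ratio of 1.31e+03 with an interval of 234 to 5.17e+04. COL10A1, the collagen of hypertrophic cartilage, was the only member too low to test in whole-cell RNA, where its highest mean was 0.122 CPM, in KO at D0. Its highest mean in any group was 4.03 CPM, in the nuclear libraries labelled WT. In nuclear RNA it had 2.004, 1.83 and 2.19 CPM in the libraries labelled KO, against 2.80, 4.81 and 4.496 CPM in the libraries labelled WT, a log2 fold change of -0.9999 ± 0.28 (SE; adjusted p = 0.0034, edgeR).

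Levels per kilobase of the longest coding transcript let the genes be ranked against each other within a group. At D0 the top of the order was COL4A1 (33.1 CPM per kb), COL6A1 (28.6) and COL18A1 (26.97) in KO, and COL6A1 (24.0), COL4A1 (22.4) and COL18A1 (19.7) in WT. At D4 it was COL6A1 (238), COL18A1 (238) and COL4A6 (236) in KO, and COL6A1 (284), COL18A1 (256) and COL4A6 (164) in WT. At D8 COL2A1 led in both, with 305 CPM per kb in the libraries labelled KO, or 20.6% of their collagen sum per kb, and 440.3 CPM per kb in those labelled WT, or 38.0%. COL18A1 followed with 195 CPM per kb in the libraries labelled KO and 109 CPM per kb in those labelled WT. Since COL2A1 is known as a cartilage collagen, 4 other cartilage markers were read beside it. ACAN, SOX9, MATN1 and COMP summed to 4.609 to 7.187 CPM in the libraries labelled KO at D8 and 13.73 to 23.83 CPM in those labelled WT, with 2 of the 4 under 1 CPM in every library of each group.

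**Figure D1:**
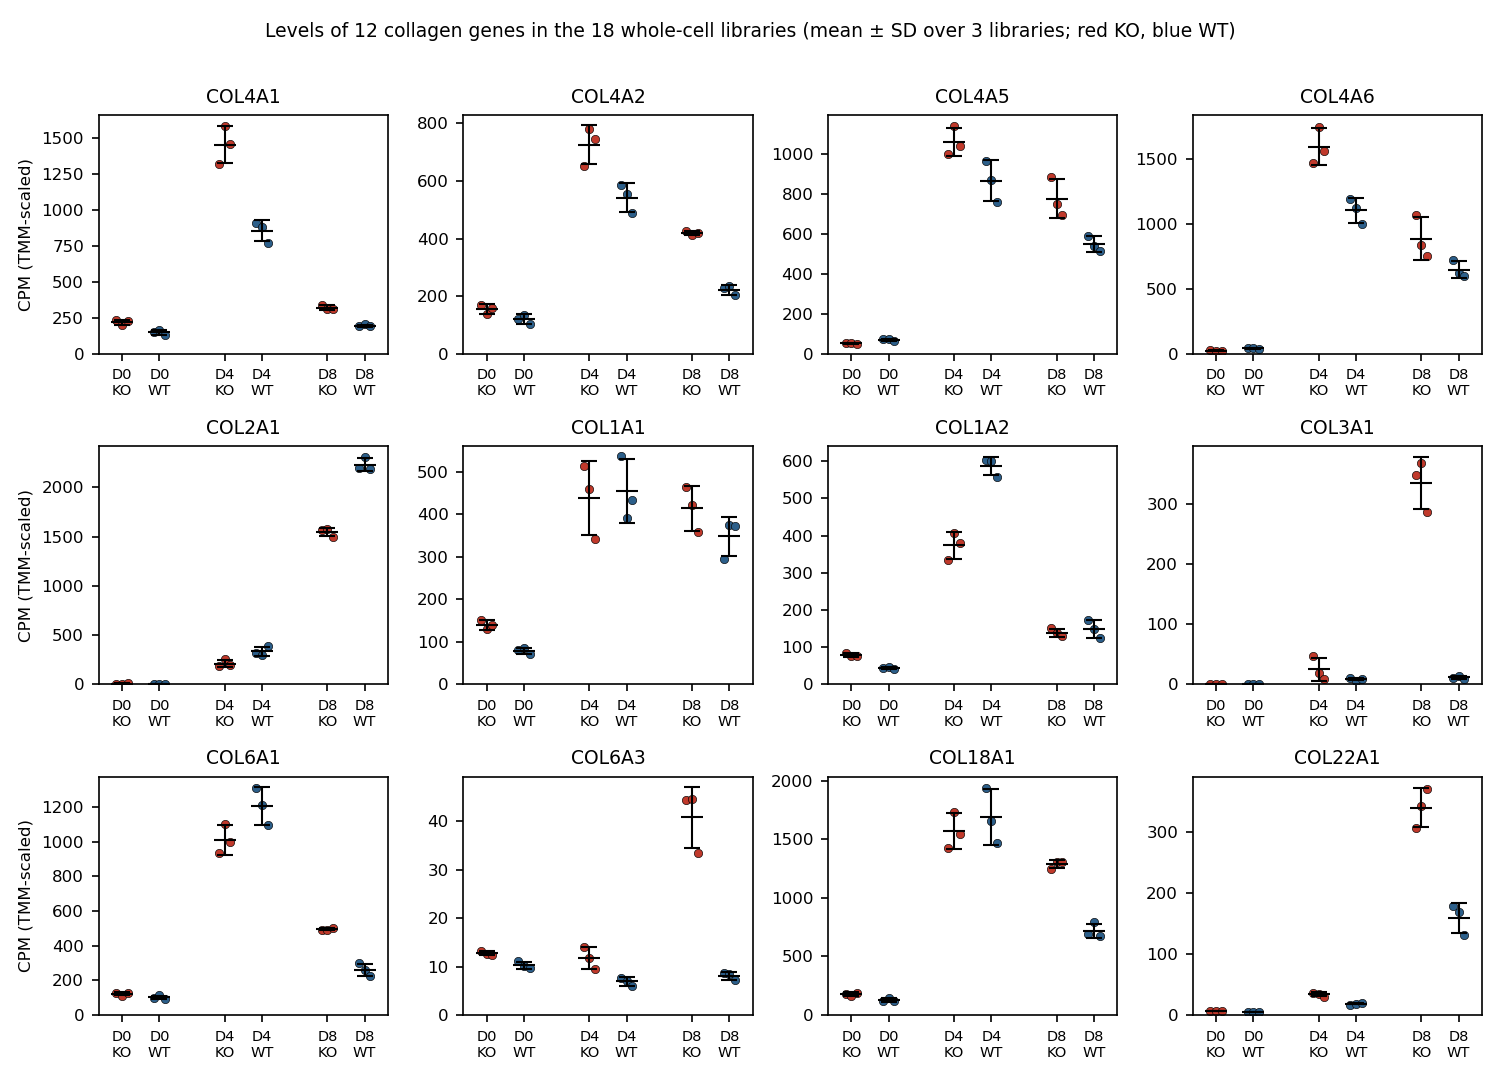
Levels of 12 collagen genes in the 18 whole-cell libraries, in CPM after TMM scaling on a linear axis that starts at 0, for KO (red) left of WT (blue) at D0, D4 and D8. Points are libraries and bars the mean ± SD over 3. Type IV genes are highest at D4, COL2A1 is highest at D8 at 1498 to 1578 CPM in KO and 2191 to 2306 CPM in WT, and COL3A1 and COL6A3 are highest in the D8 libraries labelled KO, at 286 to 368 CPM and 33.5 to 44.5 CPM.

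KO and WT cells differed in the level of many collagen genes at each day, with more genes higher than lower in KO. At D0, 19 of the 43 genes tested were called, 13 higher and 6 lower, where 42.3% of all genes tested were called, 21.4% higher and 20.9% lower. At D4, 29 were called, 21 higher and 8 lower, where 28.4% of all genes were called, 16.3% higher and 12% lower. At D8, 31 were called, 19 higher and 12 lower, where 55.6% of all genes were called, 29.4% higher and 26.2% lower. The share of collagen genes called was thus close to the background at D0 (44.2%), and above it at D4 (67.4%) and D8 (72.1%). The median log2 fold change of the collagen genes was 0.06 at D0, 0.29 at D4 and 0.30 at D8, beside -0.01, -0.004 and 0.01 over all genes tested. Calls of at least 2-fold numbered 1 at D0 (8.56% of all genes), 5 at D4 (5.68%) and 12 at D8 (16.6%). The KO and WT libraries did not overlap in 24 of the 43 genes at D0 (51.2% of all genes), 28 at D4 (45.1%) and 31 at D8 (60.5%). COL4A1, COL4A2, COL11A1 and COL16A1 were called higher on all 3 days, COL14A1 was called lower on all 3, and COL7A1, COL11A2, COL27A1 and COL28A1 were called on none. How many of all genes were called alike on all 3 days was not counted. With total counts as the scale, the calls of COL2A1 at D0 (0.30), COL6A1 at D4 (-0.18) and COL4A4 at D8 (0.43) were lost, as was that of COL4A4 for WT at D4 against D0 (-0.27). DESeq2 did not call COL6A2 (0.17) or COL17A1 (0.32) at D4. The direction of the call turned between D0 and D4 for 9 genes. COL4A5, COL4A6, COL23A1 and COL25A1 were lower in KO at D0 and higher at D4, and COL1A2, COL2A1, COL6A1, COL9A3 and COL12A1 were higher at D0 and lower at D4. Calls turned in this way for 20.9% of the collagen genes and 8.18% of all genes tested. The 9 were picked by opposite calls in the same fit. A change of the KO effect between the days, called by edgeR in all 9, thus adds no separate support. That change was called for 21 genes between D0 and D4, 11 towards higher and 10 towards lower in KO, where 39.1% of all genes were called, 20% higher and 19.1% lower. Between D4 and D8 it was called for 20, 11 towards higher and 9 towards lower, where 41.5% of all genes were called, 19.6% higher and 21.9% lower.

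**Figure D2:**
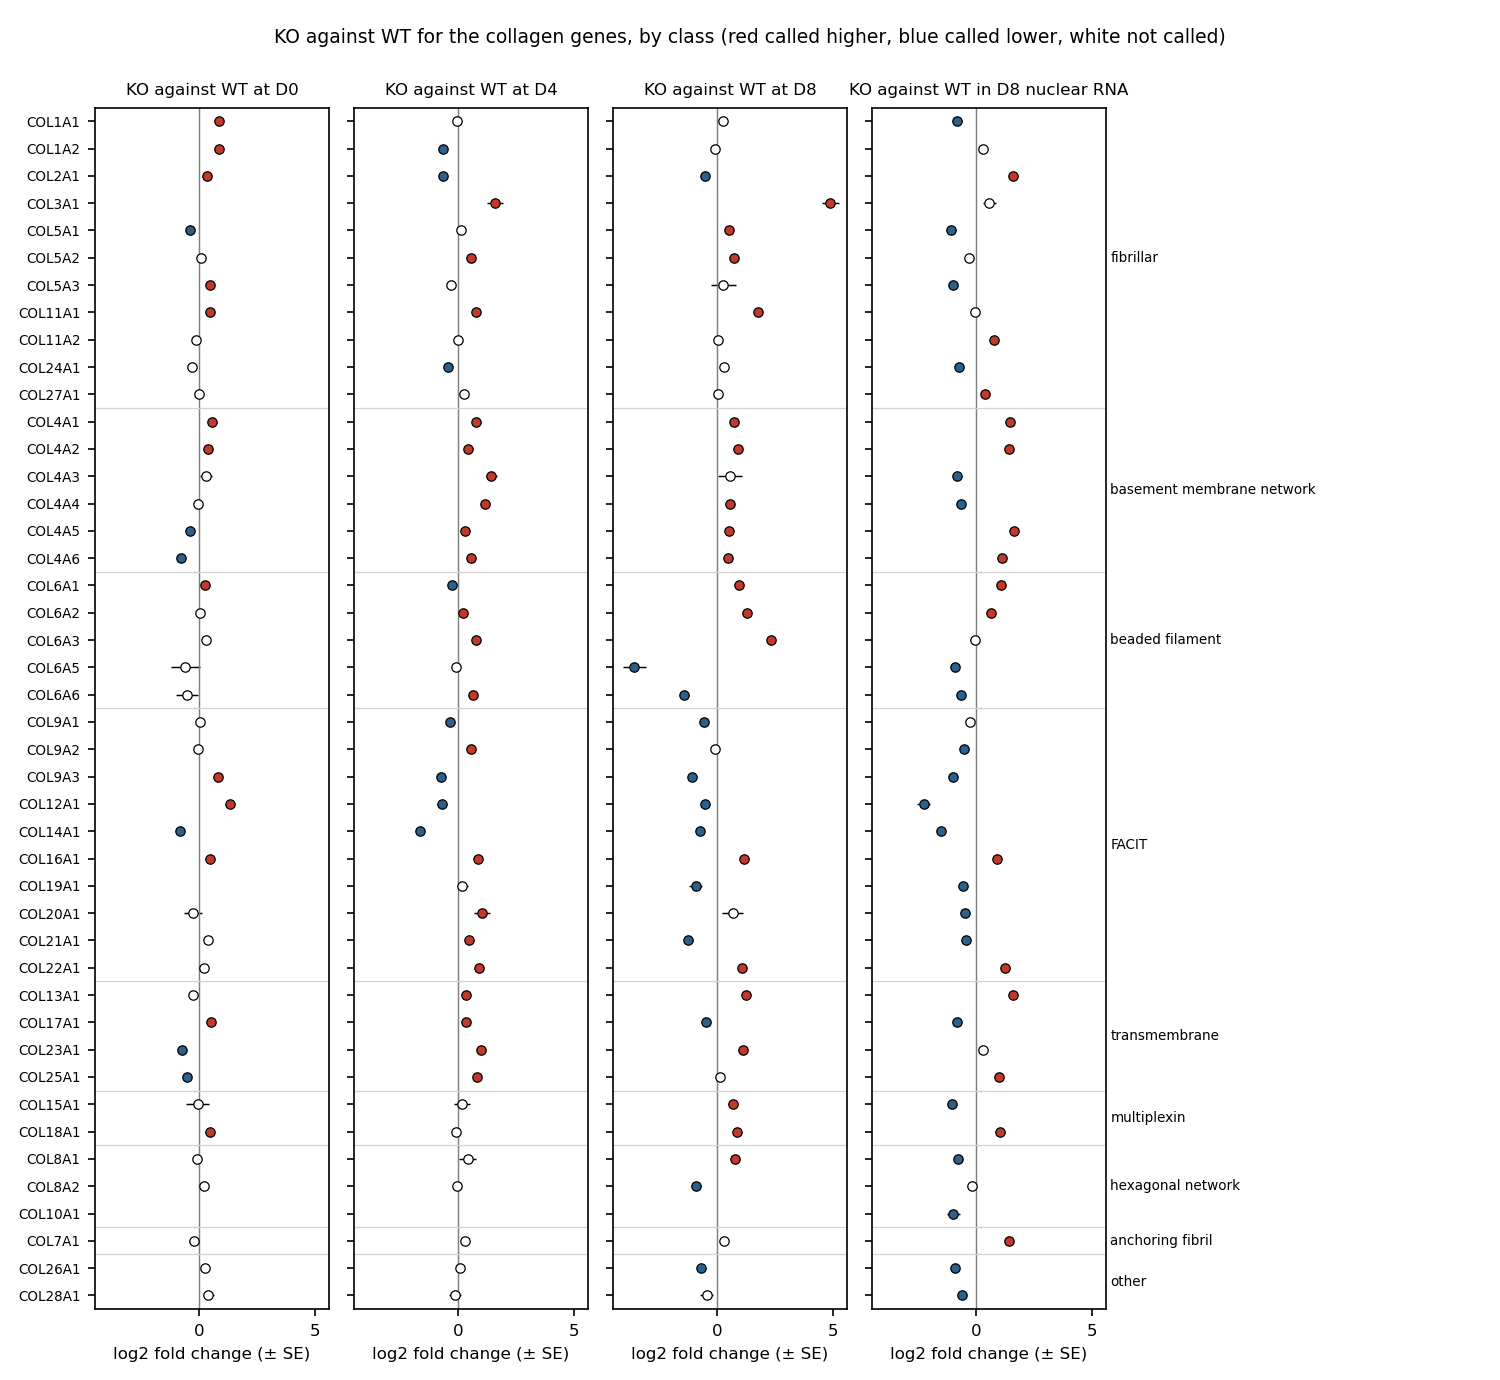
Log2 fold change of KO against WT (± SE) for each collagen gene tested, by class from top to bottom, at D0, D4 and D8 in whole-cell RNA and at D8 in nuclear RNA. Red points were called higher in KO, blue points lower, and white points were not called. COL3A1 at D0, with 9 counts in all, is not drawn. The 6 basement membrane genes are all red at D4, and COL3A1 at D8 is the farthest point to the right at 4.88.

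The basement membrane collagen IV genes were higher in KO in all 6 cases at D4 and in 5 of 6 at D8, while D0 had 2 higher and 2 lower. Of all genes tested, 16.3% were higher at D4, 29.4% at D8 and 21.4% at D0, where 20.9% were lower. The summed level of the 6 genes was 4846 ± 404 CPM in KO and 3373 ± 323 CPM in WT at D4, and 2405 ± 284 CPM in KO and 1613 ± 116 CPM in WT at D8 (SD, n = 3 each). COL4A1, a chain of the type IV trimer found in nearly all basement membranes, had 1322, 1583 and 1457 CPM in KO libraries, against 910.0, 883 and 772 CPM in WT libraries at D4. The groups did not overlap, and the log2 fold change was 0.77 ± 0.09 (SE; adjusted p = 9.5e-07, edgeR) at D4, 0.56 (adjusted p = 2.9e-05, edgeR) at D0 and 0.72 (adjusted p = 6.5e-07, edgeR) at D8. Its partner chain COL4A2 had 425, 412 and 419.6 CPM in the libraries labelled KO, against 229, 234 and 202 CPM in the libraries labelled WT at D8, with a log2 fold change of 0.92 ± 0.10 (SE; adjusted p = 1.0e-07, edgeR). Its values were 0.37 (adjusted p = 0.0042, edgeR) at D0 and 0.42 (adjusted p = 0.0022, edgeR) at D4, again with no overlap of the groups. Both chains of this trimer were thus higher in KO in every comparison of the same day.

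COL4A5 and COL4A6, whose chains occur together in basement membranes of smooth muscle and epithelia, were lower in KO at D0 and higher later. COL4A5 had 53.8, 51.7 and 50.05 CPM in KO libraries, against 71.7, 70.8 and 62.9 CPM in WT libraries at D0. It had 887, 751 and 696 CPM in the libraries labelled KO, against 592, 540.2 and 512 CPM in the libraries labelled WT at D8. The log2 fold change of COL4A5 was -0.40 ± 0.09 (SE; adjusted p = 0.0017, edgeR) at D0, 0.29 ± 0.09 (SE; adjusted p = 0.02, edgeR) at D4 and 0.51 ± 0.09 (SE; adjusted p = 8.3e-05, edgeR) at D8. The D4 call was lost without WT library 3 or KO library 2 (0.21 to 0.24). COL4A6 had 24.9, 22.8 and 22.3 CPM in KO libraries, against 43.9, 42.4 and 35.96 CPM in WT libraries at D0. It had 1470.4, 1750.1 and 1565 CPM in KO libraries, against 1194, 1122 and 998 CPM in WT libraries at D4. For COL4A6 the log2 fold change was -0.80 ± 0.12 (SE; adjusted p = 1.2e-05, edgeR) at D0, 0.53 ± 0.11 (SE; adjusted p = 8.7e-04, edgeR) at D4 and 0.45 ± 0.11 (SE; adjusted p = 0.0015, edgeR) at D8. The D8 value was smaller but still called without KO library 1 (0.30). COL4A3 and COL4A4, chains of the basement membrane of the kidney glomerulus, were low. COL4A3 had 3.13, 2.50 and 2.81 CPM in KO libraries, against 1.22, 1.14 and 0.744 CPM in WT libraries at D4. COL4A4 had 7.94, 6.84 and 6.45 CPM in KO libraries, against 3.09, 3.60 and 2.88 CPM in WT libraries. Their log2 fold changes at D4 were 1.43 ± 0.23 (SE; adjusted p = 6.0e-05, edgeR) and 1.15 ± 0.16 (SE; adjusted p = 1.3e-05, edgeR). At D8 COL4A4 was called at 0.56 (adjusted p = 0.011, edgeR) and not called without WT library 3 (0.45), and COL4A3 was not called at 0.55 (adjusted p = 0.38, edgeR). The 4 endothelial markers found summed to 247.3 to 290.6 CPM in KO and 116.0 to 166.7 CPM in WT at D4, and the 6 endoderm markers to 202.4 to 221.1 CPM in KO and 77.34 to 86.18 CPM in WT. Mitochondrial genes took 10.7 to 12.4% of the counts in KO and 15.5 to 18.9% in WT at D4. The part of these differences in the D4 collagen results was not tested.

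The 6 type IV genes lie in 3 head-to-head pairs that share a short stretch of promoter. In RefSeq (GRCh38.p14) the starts of COL4A1 and COL4A2 are 127 bases apart, those of COL4A3 and COL4A4 419 bases and those of COL4A5 and COL4A6 380 bases. All 6 genes were called higher in KO at D4, so that day cannot show whether the genes of a pair move together. At D0 COL4A1 and COL4A2 were called higher, COL4A5 and COL4A6 lower, and COL4A3 and COL4A4 not. At D8 COL4A4 was called higher and COL4A3 was not called. The part of the shared promoters was not tested. The 300 bases around the start of COL4A2, chr13:110307034-110307333 on the + strand, are shown because they hold the stretch between COL4A1 and COL4A2, with the CCAAT box (CCAAT) and GC box (GGGCGG) in capitals:
COL4A2 promoter: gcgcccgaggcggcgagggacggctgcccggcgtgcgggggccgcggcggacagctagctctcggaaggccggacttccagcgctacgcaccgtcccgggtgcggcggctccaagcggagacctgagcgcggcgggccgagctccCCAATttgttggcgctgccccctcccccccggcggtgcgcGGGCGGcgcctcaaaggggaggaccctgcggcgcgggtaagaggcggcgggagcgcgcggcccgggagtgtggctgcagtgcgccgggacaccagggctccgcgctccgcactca
It holds 1 CCAAT, 1 GGGCGG and no TATAAA on either strand. Of the 44 RefSeq promoter windows of this length matched to 32 of the collagen genes, 31.8% hold CCAAT, 54.5% GGGCGG and 18.2% TATAAA on either strand, beside 34.6%, 45% and 11.5% of all 35116 promoter windows. These are matches of letters, not sites of binding.

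The multiplexins, which lie at basement membranes, were both higher in KO at D8, where 29.4% of all genes tested were. COL18A1, whose end fragment is endostatin, had 1248, 1306 and 1305 CPM in the libraries labelled KO, against 692, 789 and 678 CPM in the libraries labelled WT at D8, with no overlap. Its log2 fold change was 0.84 ± 0.10 (SE; adjusted p = 7.1e-07, edgeR) at D8, -0.11 (adjusted p = 0.49, edgeR) at D4 and 0.46 (adjusted p = 0.0013, edgeR) at D0, called at D0 but not at D4. COL15A1 was low and had 6.58, 7.63 and 6.82 CPM in the libraries labelled KO, against 5.52, 4.13 and 3.65 CPM in the libraries labelled WT at D8 (log2 fold change 0.66 ± 0.20 (SE; adjusted p = 0.0087, edgeR)). COL7A1, the collagen of the anchoring fibrils below epithelia, had 27.7, 28.2 and 25.4 CPM in the libraries labelled KO, against 17.7, 24.2 and 23.9 CPM in the libraries labelled WT at D8 and was called on no day. At D0 it was -0.25 and not called with all libraries, but called without WT library 3 (-0.49).

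Collagen VI had a raised level of its 3 main chains in KO at D8. The 5 genes summed to 903 ± 9.47 CPM in the libraries labelled KO and 423 ± 45.8 CPM in those labelled WT at D8. At D4 the sums were 1665 ± 129.9 CPM in KO and 1760 ± 132 CPM in WT. COL6A1 had 492, 492 and 502 CPM in the libraries labelled KO, against 297, 259 and 227 CPM in the libraries labelled WT at D8. COL6A2 had 361, 376 and 359 CPM in the libraries labelled KO, against 161, 151 and 139.8 CPM in the libraries labelled WT. COL6A3, the largest chain of the usual trimer, had 44.4, 44.5 and 33.5 CPM in the libraries labelled KO, against 8.62, 8.56 and 7.18 CPM in the libraries labelled WT. In all 3 the groups did not overlap. The log2 fold changes were 0.92 ± 0.09 (SE; adjusted p = 4.6e-08, edgeR) for COL6A1, 1.28 ± 0.07 (SE; adjusted p = 7.6e-12, edgeR) for COL6A2 and 2.33 ± 0.13 (SE; adjusted p = 6.6e-12, edgeR) for COL6A3. At D4 COL6A1 had 932, 1101 and 995 CPM in KO libraries, against 1309, 1211 and 1094 CPM in WT libraries, and the groups overlapped. Its log2 fold change there was -0.25 (adjusted p = 0.043, edgeR), and the call was lost without WT library 1, WT library 2, KO library 1 or KO library 3 (-0.24 to -0.19). At D0 COL6A1 was called at 0.26 (adjusted p = 0.033, edgeR), but not without WT library 1, WT library 3, KO library 1 or KO library 3 (0.21 to 0.23). COL6A2 at D4 (0.20, adjusted p = 0.037, edgeR) was likewise not called without WT library 2, WT library 3, KO library 2 or KO library 3 (0.15 to 0.21). COL6A3 was called at D4 at 0.77 (adjusted p = 1.7e-04, edgeR). The alternative chains COL6A5 and COL6A6 went the other way at D8. COL6A6 had 52.4, 56.6 and 54.2 CPM in KO libraries, against 32.7, 36.02 and 36.1 CPM in WT libraries at D4. It had 1.04, 1.19 and 0.777 CPM in the libraries labelled KO, against 1.88, 2.68 and 3.54 CPM in the libraries labelled WT at D8. It was higher in KO at D4 (0.64 ± 0.13 SE, adjusted p = 7.3e-04, edgeR) and lower at D8 (-1.43 ± 0.19 SE, adjusted p = 1.7e-06, edgeR). COL6A5 had 0.0464, 0.0144 and 0.0169 CPM in the libraries labelled KO, against 0.187, 0.342 and 0.450 CPM in the libraries labelled WT at D8, all under 1 CPM. That is a log2 fold change of -3.58 ± 0.48 (SE; adjusted p = 2.4e-06, edgeR).

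Among the 11 fibrillar genes, 5 were higher and 1 lower in KO at D0, 3 higher and 3 lower at D4, and 4 higher and 1 lower at D8. The shares of all genes tested were 21.4% higher and 20.9% lower at D0, 16.3% and 12% at D4, and 29.4% and 26.2% at D8. COL3A1 had the largest whole-cell fold change of the collagen genes at D8. It had 348, 368 and 286 CPM in the libraries labelled KO, against 10.8, 14.1 and 9.09 CPM in the libraries labelled WT at D8, with no overlap. The log2 fold change was 4.88 ± 0.36 (SE; adjusted p = 4.5e-10, edgeR). At D4 it had 46.3, 18 and 9.57 CPM in KO libraries, against 9.79, 6.20 and 9.11 CPM in WT libraries, and the groups overlapped. The log2 fold change of 1.57 (adjusted p = 0.0016, edgeR) remained called without KO library 1 (0.72) but was smaller. COL2A1 was lower in KO at D4 and D8: it had 187, 252 and 193 CPM in KO libraries, against 319, 299 and 387 CPM in WT libraries at D4. It had 1569.8, 1578 and 1498 CPM in the libraries labelled KO, against 2201, 2306 and 2191 CPM in the libraries labelled WT at D8. The log2 fold changes were -0.67 ± 0.10 (SE; adjusted p = 3.2e-05, edgeR) and -0.53 ± 0.10 (SE; adjusted p = 1.4e-04, edgeR), with no overlap on either day. At D0 COL2A1 was called higher at 0.32 (adjusted p = 0.046, edgeR), a call lost without WT library 1, WT library 3, KO library 1, KO library 2 or KO library 3 (0.23 to 0.35).

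The 2 chains of type I collagen, the main collagen of bone, tendon and scar, were both higher in KO at D0. COL1A1 had 151, 129 and 139 CPM in KO libraries, against 79.9, 84.3 and 70.8 CPM in WT libraries. COL1A2 had 84.4, 75.2 and 75.9 CPM in KO libraries, against 43.7, 46.8 and 40.7 CPM in WT libraries. The log2 fold changes at D0 were 0.83 ± 0.14 (SE; adjusted p = 5.0e-05, edgeR) and 0.85 ± 0.10 (SE; adjusted p = 8.1e-07, edgeR). At D4 COL1A2 was lower, with 335, 408 and 379 CPM in KO libraries, against 603, 600.0 and 558 CPM in WT libraries (-0.65 ± 0.10 SE, adjusted p = 2.1e-05, edgeR). COL1A1 was not called at D4 (-0.05, adjusted p = 0.83, edgeR). At D8 neither was called, at 0.25 (adjusted p = 0.12, edgeR) for COL1A1, which was called without KO library 4 (0.35), and -0.09 (adjusted p = 0.42, edgeR) for COL1A2. The fibroblast and mesenchyme markers, 8 genes, summed to 136.5 to 146.3 CPM in the libraries labelled KO and 126.0 to 127.4 CPM in those labelled WT at D8. At D0 they summed to 496.6 to 517.5 CPM in KO and 661.5 to 711.3 CPM in WT. Not all members went with that sum: of the 7 tested at D0, 2 were called higher in KO, 1 lower and 4 not. The part of these marker differences in the type I result was not tested.

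COL11A1, a chain of the type XI collagen that limits fibril width, was higher in KO on all 3 days. It had 33.8, 27.7 and 24.3 CPM in the libraries labelled KO, against 9.83, 7.57 and 7.62 CPM in the libraries labelled WT at D8, with no overlap. The log2 fold change was 0.48 ± 0.11 (SE; adjusted p = 0.0018, edgeR) at D0, 0.76 ± 0.11 (SE; adjusted p = 2.3e-05, edgeR) at D4 and 1.78 ± 0.12 (SE; adjusted p = 9.0e-11, edgeR) at D8, and its change between D4 and D8 was called too. Its partner COL11A2 had 54.05, 54.8 and 56.9 CPM in the libraries labelled KO, against 60.5, 49.8 and 51.1 CPM in the libraries labelled WT at D8 and was not called (0.04, adjusted p = 0.78, edgeR). Type V collagen starts fibril assembly. COL5A2 had 313, 293 and 272 CPM in KO libraries, against 212, 189.6 and 191 CPM in WT libraries at D4. It was higher in KO at D4 (0.57 ± 0.07 SE, adjusted p = 1.7e-06, edgeR) and D8 (0.73 ± 0.07 SE, adjusted p = 1.7e-08, edgeR). COL5A1 had 469, 394 and 376 CPM in the libraries labelled KO, against 259.9, 315 and 305 CPM in the libraries labelled WT at D8 (0.49 ± 0.11 SE, adjusted p = 5.7e-04, edgeR). It was not called at D4 (0.13, adjusted p = 0.39, edgeR), and was lower in KO at D0 (-0.42, adjusted p = 0.0079, edgeR), a call lost without WT library 2 (-0.28). COL5A3 had 5.17, 4.87 and 5.71 CPM in KO libraries, against 3.15, 4.56 and 3.79 CPM in WT libraries at D0 (0.46, adjusted p = 0.015, edgeR), a call lost without WT library 1 or KO library 3 (0.33 to 0.39). Of the minor fibrillar genes, COL24A1 was lower in KO at D4, with 4.19, 4.94 and 4.69 CPM in KO libraries, against 6.34, 6.57 and 5.88 CPM in WT libraries (-0.45, adjusted p = 0.019, edgeR), a call lost without WT library 1, WT library 2 or KO library 1 (-0.44 to -0.38). It was not called with all libraries at D0 or D8, but was called at D0 without KO library 1 (-0.46) and at D8 without WT library 2 (0.51). COL27A1 had 113, 119.5 and 126 CPM in KO libraries, against 113, 91.9 and 94.4 CPM in WT libraries at D4 and was called on no day, except at D4 without WT library 1 (0.36).

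The FACIT genes had more members lower than higher in KO at D8, at 6 lower and 2 higher of 10, after 5 higher and 4 lower at D4. Of all genes tested, 26.2% were lower and 29.4% higher at D8, and 12% lower and 16.3% higher at D4. COL14A1, a FACIT of tendon and skin fibrils, was lower in KO throughout. It had 18.8, 17.9 and 19.3 CPM in KO libraries, against 35.4, 34.1 and 30.5 CPM in WT libraries at D0. At D4 it had 4.14, 4.42 and 3.40 CPM in KO libraries, against 13.3, 13.5 and 11.4 CPM in WT libraries. It had 3.38, 3.71 and 3.02 CPM in the libraries labelled KO, against 5.18, 6.21 and 5.78 CPM in the libraries labelled WT at D8. The groups did not overlap on any day, and the log2 fold changes were -0.84 ± 0.10 (SE; adjusted p = 7.7e-07, edgeR), -1.67 ± 0.11 (SE; adjusted p = 5.0e-10, edgeR) and -0.76 ± 0.11 (SE; adjusted p = 5.9e-06, edgeR). The related COL12A1, found with type I fibrils, was higher in KO at D0 with 11.5, 10.7 and 12.2 CPM in KO libraries, against 4.78, 4.58 and 4.22 CPM in WT libraries (1.34 ± 0.18 SE, adjusted p = 4.1e-06, edgeR). It was lower at D4 (-0.69, adjusted p = 0.019, edgeR), where it was not called without WT library 1, WT library 2, KO library 1 or KO library 3 (-0.66 to -0.47). It was also lower at D8 (-0.53, adjusted p = 0.011, edgeR), where it was not called without KO library 2 or KO library 4 (-0.45 to -0.39). COL16A1 was higher on all 3 days, with 36.1, 48.6 and 55.7 CPM in the libraries labelled KO, against 19.5, 24.8 and 18.4 CPM in the libraries labelled WT at D8 (1.17 ± 0.13 SE, adjusted p = 1.3e-07, edgeR). At D4 its value was 0.84 (adjusted p = 4.5e-05, edgeR), and at D0 0.45 (adjusted p = 0.021, edgeR), a call lost without WT library 3 or KO library 1 (0.36 to 0.41). COL22A1 had 36.8, 35.2 and 30.4 CPM in KO libraries, against 17.2, 18.6 and 19.4 CPM in WT libraries at D4. It had 307, 344 and 371 CPM in the libraries labelled KO, against 179, 169 and 132 CPM in the libraries labelled WT at D8. It was higher in KO on both days, at 0.89 ± 0.10 (SE; adjusted p = 7.3e-07, edgeR) and 1.09 ± 0.09 (SE; adjusted p = 4.4e-09, edgeR), with no overlap. Of the 7 cardiomyocyte markers, 5 were also higher in the D8 libraries labelled KO and ACTN2 was lower, and their part in the COL22A1 difference was not tested.

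Type IX collagen coats cartilage fibrils, and its 3 genes did not move together. COL9A3 had 21.5, 22.8 and 24.6 CPM in KO libraries, against 12, 15.7 and 11.6 CPM in WT libraries at D0. It had 28.2, 21.3 and 22.1 CPM in the libraries labelled KO, against 43.4, 54.3 and 55 CPM in the libraries labelled WT at D8. Its log2 fold change was 0.81 ± 0.15 (SE; adjusted p = 1.8e-04, edgeR) at D0, -0.75 ± 0.14 (SE; adjusted p = 2.6e-04, edgeR) at D4 and -1.09 ± 0.14 (SE; adjusted p = 1.5e-06, edgeR) at D8. COL9A2 had 421, 505 and 467 CPM in KO libraries, against 324, 308 and 309.7 CPM in WT libraries at D4 and was higher in KO (0.56 ± 0.11 SE, adjusted p = 4.4e-04, edgeR). COL9A1 had 4.30, 4.04 and 4.27 CPM in the libraries labelled KO, against 7.33, 6.10 and 5.42 CPM in the libraries labelled WT at D8. It was lower in KO at D8 (-0.58 ± 0.11 SE, adjusted p = 1.3e-04, edgeR) and at D4 (-0.34, adjusted p = 0.012, edgeR), a call lost without KO library 3 (-0.26). COL21A1 had 13.3, 13.1 and 12.97 CPM in KO libraries, against 8.46, 9.25 and 11.2 CPM in WT libraries at D4. It had 7.31, 5.40 and 3.97 CPM in the libraries labelled KO, against 11.03, 13.7 and 14.8 CPM in the libraries labelled WT at D8. It was higher in KO at D4 (0.45, adjusted p = 0.03, edgeR) and lower at D8 (-1.25 ± 0.15 SE, adjusted p = 6.7e-07, edgeR). The D4 call was lost without WT library 1, WT library 2, KO library 1, KO library 2 or KO library 3 (0.36 to 0.46). COL19A1 had 1.24, 0.619 and 0.405 CPM in the libraries labelled KO, against 1.39, 1.09 and 1.82 CPM in the libraries labelled WT at D8, where the groups overlapped. The log2 fold change of -0.93 (adjusted p = 0.0094, edgeR) was no longer called, or moved by over 1.5 times, without WT library 4, KO library 1, KO library 2 or KO library 4 (-1.47 to -0.64). COL20A1 had 1.01, 0.968 and 1.24 CPM in KO libraries, against 0.638, 0.561 and 0.336 CPM in WT libraries at D4 (1.04, adjusted p = 0.03, edgeR), a call lost without WT library 2, WT library 3, KO library 1 or KO library 3 (0.83 to 1.11).

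At D4, where 16.3% of all genes tested were higher in KO, all 4 transmembrane collagen genes were. Their summed level was 349.8 ± 19.6 CPM in KO and 219 ± 5.85 CPM in WT at D4, and 176 ± 3.97 CPM in the libraries labelled KO and 83.7 ± 17.0 CPM in those labelled WT at D8. COL23A1 had 8.36, 8.89 and 9.10 CPM in KO libraries, against 14.5, 17.2 and 12.7 CPM in WT libraries at D0. At D4 it had 159, 181 and 180.1 CPM in KO libraries, against 87.5, 86.7 and 86.3 CPM in WT libraries. It had 68.1, 61.3 and 58.4 CPM in the libraries labelled KO, against 37.5, 26.5 and 24.2 CPM in the libraries labelled WT at D8. It was lower in KO at D0 (-0.75 ± 0.13 SE, adjusted p = 1.1e-04, edgeR) and higher at D4 (1.00 ± 0.12 SE, adjusted p = 1.2e-06, edgeR) and D8 (1.09 ± 0.12 SE, adjusted p = 1.2e-07, edgeR), with no overlap on any day. COL25A1, needed for the innervation of muscle, had 44.2, 36.01 and 32.9 CPM in KO libraries, against 21.7, 20.6 and 22.4 CPM in WT libraries at D4. It was lower in KO at D0 (-0.55 ± 0.12 SE, adjusted p = 0.001, edgeR), higher at D4 (0.81 ± 0.12 SE, adjusted p = 1.7e-05, edgeR) and not called at D8 (0.11, adjusted p = 0.48, edgeR). COL13A1, a collagen of the neuromuscular junction, had 96.9, 109 and 104 CPM in the libraries labelled KO, against 52.9, 45.9 and 33.8 CPM in the libraries labelled WT at D8 (1.23 ± 0.11 SE, adjusted p = 7.1e-09, edgeR). It was called at D4 (0.33, adjusted p = 0.025, edgeR) except without WT library 1, KO library 2 or KO library 3 (0.28 to 0.29). COL17A1, the hemidesmosome collagen of skin, had 1.41, 1.51 and 1.48 CPM in KO libraries, against 1.09, 1.05 and 0.961 CPM in WT libraries at D0. Its log2 fold change was 0.51 (adjusted p = 0.011, edgeR) at D0, 0.35 (adjusted p = 0.047, edgeR) at D4 and -0.47 (adjusted p = 0.012, edgeR) at D8. The D4 call was lost without WT library 1, WT library 3, KO library 2 or KO library 3 (0.28 to 0.35), and the D8 call without KO library 2 (-0.38).

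The network-forming type VIII chains, known from the cornea and vessels, diverged at D8. COL8A1 had 4.34, 3.96 and 3.16 CPM in the libraries labelled KO, against 2.26, 2.37 and 2.01 CPM in the libraries labelled WT (0.79 ± 0.15 SE, adjusted p = 1.9e-04, edgeR). COL8A2 had 0.371, 0.360 and 0.270 CPM in the libraries labelled KO, against 0.636, 0.659 and 0.603 CPM in the libraries labelled WT (-0.91 ± 0.21 SE, adjusted p = 8.3e-04, edgeR). COL26A1 had 49.1, 43.7 and 42.1 CPM in the libraries labelled KO, against 63.2, 77.6 and 75.98 CPM in the libraries labelled WT at D8 and was lower in KO (-0.68 ± 0.10 SE, adjusted p = 9.7e-06, edgeR). At D0 it was not called with all libraries (0.26, adjusted p = 0.052, edgeR), and called without WT library 2 or KO library 2 (0.32 to 0.36). COL28A1 had 1.66, 1.81 and 1.62 CPM in KO libraries, against 1.39, 1.46 and 1.05 CPM in WT libraries at D0 and was called on no day, except at D8 without WT library 2 or KO library 1 (-0.85 to -0.67), against -0.46 with all libraries.

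In nuclear RNA at D8, COL2A1, COL13A1, COL18A1 and the main type IV genes were higher, and COL12A1, COL14A1 and COL5A1 lower, in the libraries labelled KO. Of the 44 genes, 36 were called, 15 higher and 21 lower, where 64% of the 30481 genes tested were called, 31.2% higher and 32.8% lower. Calls of at least 2-fold numbered 16 (24.6% of all genes), and the libraries did not overlap in 36 genes (67.8% of all genes). The median log2 fold change was -0.30 over the collagen genes and -0.27 over all genes. This split depended on the tool. DESeq2 called 22, of which 16 were higher and 6 lower, and 21 of these 22 were also called by edgeR. Among the genes called by edgeR alone were COL6A6, COL8A1, COL9A2, COL17A1, COL19A1, COL20A1, COL21A1, COL24A1, COL26A1 and COL28A1, at -0.59 to -0.10 by DESeq2. With total counts as the scale, 13 were higher and 26 lower, and COL6A2 was no longer called (0.20). SNORD3A, a small nucleolar RNA gene, took 11.53 to 14.36% of the counts in the libraries labelled KO and 21.34 to 28.12% in those labelled WT. The directions of the edgeR calls at D8 were the same in whole-cell and nuclear RNA for 10 genes called higher and 9 called lower in both, or 23.3% and 20.9% of the 43 tested in both tables, where 19.9% and 8.16% of all 20049 such genes were. They were opposite for COL2A1 (lower in whole-cell, higher in nuclear RNA) and for COL4A4, COL5A1, COL8A1 and COL15A1 (higher in whole-cell, lower in nuclear RNA), or 11.6% of the collagen genes, beside 13% of all. The whole-cell and nuclear tables were scaled separately, so levels are compared only within each. Marker sums differed in the nuclear libraries too, and their part in the nuclear results was not tested. The cardiomyocyte sum was 13540 to 16030 CPM in the libraries labelled KO and 3560 to 4556 CPM in those labelled WT. That of endoderm was 189.3 to 485.5 CPM in KO and 17.87 to 21.54 CPM in WT, and that of surface ectoderm and amnion 124.0 to 322.9 CPM in KO and 454.6 to 752.3 CPM in WT.

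COL2A1, the leading collagen gene per kb in whole-cell RNA at D8, was called in opposite directions. In nuclear RNA it had 1087, 919.9 and 1201 CPM in the libraries labelled KO, against 355, 349.8 and 353 CPM in the libraries labelled WT. Its nuclear log2 fold change was 1.60 ± 0.18 (SE; adjusted p = 1.2e-08, edgeR), beside -0.53 in whole-cell RNA. The 4 main type IV genes were higher without overlap: COL4A1 had 729.6, 779 and 713 CPM in the libraries labelled KO, against 264, 260.2 and 274 CPM in the libraries labelled WT. COL4A5 had 702, 839 and 719 CPM in the libraries labelled KO, against 238, 230.3 and 265 CPM in the libraries labelled WT. The log2 fold changes were 1.48 ± 0.17 (SE; adjusted p = 1.2e-08, edgeR) for COL4A1, 1.41 ± 0.18 (SE; adjusted p = 6.5e-08, edgeR) for COL4A2, 1.62 ± 0.17 (SE; adjusted p = 2.9e-09, edgeR) for COL4A5 and 1.12 ± 0.15 (SE; adjusted p = 1.5e-07, edgeR) for COL4A6. The whole class summed to 2736 ± 129.6 CPM in the libraries labelled KO and 1024 ± 31.9 CPM in those labelled WT. COL4A3 and COL4A4 were lower (-0.84, adjusted p = 6.0e-05, edgeR and -0.66 (adjusted p = 5.7e-04, edgeR)), and DESeq2 called neither, at -0.52 and -0.34. COL13A1 had 61.3, 62.97 and 64.3 CPM in the libraries labelled KO, against 19.04, 22.2 and 21.6 CPM in the libraries labelled WT (1.58 ± 0.13 SE, adjusted p = 1.6e-11, edgeR). COL7A1 had 302, 241 and 329.6 CPM in the libraries labelled KO, against 125, 92.8 and 104 CPM in the libraries labelled WT (1.43 ± 0.16 SE, adjusted p = 7.8e-09, edgeR), although COL7A1 was not called in whole-cell RNA at D8. COL18A1 (1.01, adjusted p = 2.1e-05, edgeR), COL22A1 (1.23, adjusted p = 5.6e-08, edgeR), COL25A1 (1.00, adjusted p = 2.4e-07, edgeR) and COL6A1 (1.09, adjusted p = 9.5e-08, edgeR) were also higher.

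COL12A1 and COL14A1 were lower. COL12A1 had 92.96, 283 and 89.9 CPM in the libraries labelled KO, against 848, 681 and 727 CPM in the libraries labelled WT. COL14A1 had 25.2, 29.9 and 19.7 CPM in the libraries labelled KO, against 81.1, 66.4 and 64.5 CPM in the libraries labelled WT. The log2 fold changes were -2.27 ± 0.27 (SE; adjusted p = 1.9e-08, edgeR) and -1.50 ± 0.15 (SE; adjusted p = 4.8e-10, edgeR), with no overlap. COL5A1 had 261, 503 and 274 CPM in the libraries labelled KO, against 808, 678 and 726 CPM in the libraries labelled WT (-1.09 ± 0.20 SE, adjusted p = 3.8e-05, edgeR). COL1A1 had 152, 325 and 163 CPM in the libraries labelled KO, against 427, 350.3 and 359 CPM in the libraries labelled WT (-0.83 ± 0.20 SE, adjusted p = 8.8e-04, edgeR). DESeq2 called neither, at -0.70 and -0.43. COL3A1 was the collagen gene with the highest nuclear level per kb, with 1068, 2535 and 1072 CPM in the libraries labelled KO, against 1455, 801 and 896 CPM in the libraries labelled WT, and the groups overlapped. Its log2 fold change of 0.57 (adjusted p = 0.06, edgeR) did not pass the threshold, beside 4.88 in whole-cell RNA, and it was called without KO library 1, KO library 3 or WT library 1 (0.79 to 0.91). Library 2 of those labelled KO had the highest KO value of COL1A1, COL3A1, COL5A1, COL5A2 and COL12A1. Without library 2, COL1A1 was -1.27, beside -0.54 without KO library 1, and COL6A6 was -0.43, beside -0.67 with all libraries. Also without it, COL5A2 was called at -0.65 and COL6A3 at -0.35, where all libraries gave -0.31 and -0.06 and no call. COL23A1, at 0.28 and not called, was called without KO library 1 or KO library 2 (0.36 to 0.38). Other nuclear calls were lost when 1 library was left out. These were COL9A2 at -0.52, lost without KO library 3 or WT library 1 (-0.50 to -0.31), and COL20A1 at -0.48, lost without KO library 1 (-0.37). The call of COL21A1 at -0.44 was lost without KO library 1, KO library 3 or WT library 1 (-0.43 to -0.30), and that of COL27A1 at 0.40 without KO library 3, WT library 2 or WT library 3 (0.30 to 0.39). COL1A2, at 0.29 and not called with all libraries, was called without KO library 1 or KO library 3 (0.49 to 0.52), and COL9A1, at -0.29, without KO library 3 (-0.44). Among collagen genes called under either scaling, COL27A1 alone changed sign, at -0.05 with total counts. Sign changes of genes called under neither were not counted. Of the 7 collagen genes under 1 CPM in both D8 whole-cell groups (COL4A3, COL5A3, COL6A5, COL8A2, COL10A1, COL20A1 and COL28A1), 6 were lower and none higher in the nuclear libraries labelled KO. Over all 11954 genes that low in whole-cell RNA, 51.5% were lower and 4.16% higher, against 13.1% lower and 58.7% higher of the 15336 genes above 1 CPM. Low-level genes as a whole thus moved with the label in nuclear RNA, and their part in these 6 calls was not tested.

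**Figure D3:**
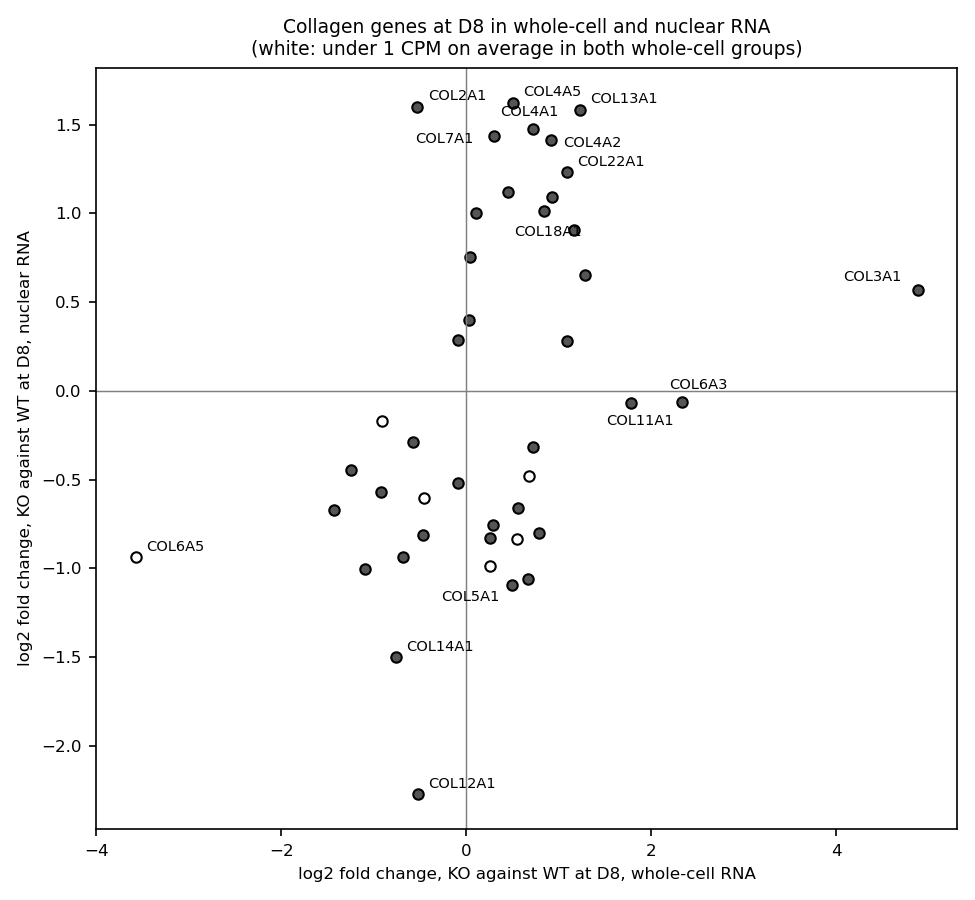
Log2 fold change of KO against WT at D8 for the 43 collagen genes tested in both tables, in whole-cell RNA on the horizontal axis and nuclear RNA on the vertical axis, both on linear axes of log2 values. White points are the 6 genes under 1 CPM in both whole-cell groups. COL2A1 lies at -0.53 and 1.60, and COL3A1 at 4.88 and 0.57. The 2 axes come from separate libraries.

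Genes that fold, modify, process and bind collagens were read from a list of 71, of which all were found and 66 tested in whole-cell RNA. At D0, 9 were higher and 26 lower in KO, where 21.4% of all genes were higher and 20.9% lower. At D4, 40 were higher and 4 lower, where 16.3% of all genes were higher and 12% lower. At D8, 37 were higher and 8 lower, where 29.4% of all genes were higher and 26.2% lower. In nuclear RNA 31 were higher and 22 lower of 71, where 31.2% of all genes were higher and 32.8% lower. Of the folding and modifying enzymes, none was higher and 9 were lower of 20 tested at D0, 17 were higher and none lower at D4, and 14 were higher and 1 lower at D8, to be read against the same shares of all genes. P4HA1, the prolyl 4-hydroxylase subunit whose product stabilises the triple helix, averaged 92.1 ± 6.16 CPM in KO and 228 ± 33.1 CPM in WT at D0 (log2 fold change -1.31, edgeR adjusted p = 6e-09). P4HA2 (-1.11), FKBP14 (-0.94), a folding isomerase, and LEPREL1 (-0.85), a prolyl 3-hydroxylase, were lower too. At D4 LEPREL1 was higher, at 317 ± 3.30 CPM in KO and 161 ± 11.1 CPM in WT (0.98, edgeR adjusted p = 8.5e-08), as was TMEM38B (1.01), an ion channel of the endoplasmic reticulum needed for collagen maturation. FMOD, a fibril-binding proteoglycan, was higher at D4 with 37.2 ± 0.953 CPM in KO and 6.60 ± 0.174 CPM in WT (2.49). At D8 it had 15.2 ± 4.002 CPM in the libraries labelled KO and 2.66 ± 0.624 CPM in those labelled WT (2.51), and in nuclear RNA 34.98 ± 22.1 CPM in the libraries labelled KO and 4.36 ± 0.891 CPM in those labelled WT (3.003). Other genes called higher and named by size were TNC (0.60), LAMA5 (0.37), ITGA1 (0.36) and TIMP2 (0.21) at D0, TIMP3 (0.89) at D4, and LAMA4 (1.46), COLGALT2 (1.41) and LOXL4 (1.33) at D8. COLGALT2 adds galactose to collagen, and LOXL4 crosslinks it. Called lower were LAMA5 (-0.82), TNC (-0.59) and PCOLCE (-0.41) at D4, and ITGA2 (-1.33), a subunit of a collagen receptor, ADAMTS2 (-0.88), which trims procollagen, LAMA5 (-0.88) and LAMC1 (-0.53) at D8. In nuclear RNA NID2 (2.39), NID1 (1.80) and LOXL4 (2.10) were higher, and TNC (-2.75), MMP9 (-2.30), ADAMTS2 (-1.05) and ITGA10 (-1.03) lower. The nidogens link type IV collagen to laminin.

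Exon skipping was read from 4 deposited tables of skipped-exon events. Each table compares 2 arms of 3 libraries, for the stem cell line on each day or for 293xT cells. The arms are numbered in the tables but not named, so they are called the first and second arm, and differences are second minus first. The inclusion level is the share of transcripts that hold the exon, as estimated in the authors' deposited table after correction for length. An event was called where the authors' FDR was under 0.05, the difference at least 0.1 and each arm averaged 10 or more junction reads a library. The tables held 212 collagen events with that depth for D0, 364 for D4, 350 for D8 and 46 for 293xT cells. Of these, 13 were called at D0, 11 with more inclusion in the second arm and 2 with less. That is 6.13% of the collagen events, where 2.36% of all events were called (1.06% more, 1.31% less). At D4, 11 were called, 7 with more and 4 with less inclusion in the second arm (3.02%, where 1.09% of all events were called, 0.556% more and 0.536% less). At D8, 21 were called, 11 with more and 10 with less (6%, where 2.23% of all events were called, 1.21% more and 1.02% less). In 293xT cells none was called, where 0.446% of all events were (0.273% more, 0.173% less). There, 1 collagen event had an unadjusted p under 0.05 in the authors' deposited table and 2 by limma, and limma called none after adjustment. The calls fell on 24 exons of 7 genes: 9 in COL25A1, 7 in COL13A1, 2 each in COL16A1, COL23A1 and COL4A5, and 1 each in COL6A3 and COL14A1. Both leading genes encode transmembrane collagens. With limma on the logit of inclusion, adjusted over all events and with a difference of at least 0.1, 2 collagen events were called at D0, 2 at D4 and 9 at D8. Among collagen exons with an event, 82.1% at D0, 83.8% at D4 and 86.9% at D8 had a length that is a multiple of 3, against 42.3%, 40.5% and 40.1% of all exons. A multiple of 9, the length of a Gly-X-Y repeat, was found for 53.7%, 60.5% and 63.6% of the collagen exons, against 14.1%, 13.7% and 13.5% of all.

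The exons that carry the exon results are shown here, as they are parts of the transcripts whose inclusion differed between arms. Protein was not measured. Sequences are from GENCODE v29 transcripts matched by exon and intron lengths, 5′ to 3′, with the glycine codons (GGN) of the matched reading frame in capitals. The 78-nt exon of COL13A1 matched only a transcript annotated as not coding and has no capitals. Positions are those of the deposited tables, in hg19.
COL13A1 87-nt exon, chr10:71712638-71712724, + strand: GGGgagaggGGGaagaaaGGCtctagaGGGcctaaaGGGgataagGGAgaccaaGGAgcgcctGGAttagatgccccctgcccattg
COL25A1 87-nt exon, chr4:109740968-109741054, - strand: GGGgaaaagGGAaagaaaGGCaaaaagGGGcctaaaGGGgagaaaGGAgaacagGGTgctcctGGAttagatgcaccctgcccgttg
COL13A1 78-nt exon, chr10:71713704-71713781, + strand: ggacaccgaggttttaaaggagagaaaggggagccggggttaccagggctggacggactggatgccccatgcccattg
COL25A1 78-nt exon, chr4:109740408-109740485, - strand: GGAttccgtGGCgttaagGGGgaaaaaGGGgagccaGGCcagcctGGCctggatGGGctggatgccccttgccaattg
COL13A1 36-nt exon, chr10:71700744-71700779, + strand: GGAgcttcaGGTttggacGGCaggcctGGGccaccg
COL25A1 36-nt exon, chr4:109755511-109755546, - strand: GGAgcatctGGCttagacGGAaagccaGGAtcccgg
COL25A1 27-nt exon, chr4:109746352-109746378, - strand: GGGaaagatGGAgagcctGGTcttgat
COL25A1 24-nt exon, chr4:109774058-109774081, - strand: aggattaccaccttaactgtcacg
COL4A5 9-nt exon, chrX:107913458-107913466, + strand: gtcctacag
Aligned base by base without gaps, the 87-nt exons of COL13A1 and COL25A1 are identical at 71 positions (81.6%), the 78-nt exons at 59 (75.6%) and the 36-nt exons at 25 (69.4%). In each gene the 87-nt and 78-nt exons lie next to each other, the 87-nt exon first.

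In COL25A1 the second arm held more of the 78-nt exon and less of the 87-nt exon than the first arm on each day. Inclusion of the 78-nt exon was 0.691, 0.369 and 0.397 in the second arm, against 0.035, 0.05 and 0.074 in the first arm at D0. At D4 it was 0.699, 0.961 and 0.761 in the second arm, against 0.029, 0 and 0.047 in the first arm. At D8 it was 0.588, 0.771 and 0.681 in the second arm, against 0.109, 0.034 and 0.098 in the first arm. The arms did not overlap in any of the 3 tables, and the authors' deposited table gives an FDR of 1.5e-08 at D0, 0 at D4 and 2e-14 at D8. The 87-nt exon went the other way. Its inclusion was 0.137, 0.192 and 0.388 in the second arm, against 0.559, 0.792 and 0.655 in the first arm at D0. At D4 it was 0.141, 0.118 and 0.067 in the second arm, against 0.8, 0.789 and 0.811 in the first arm. At D8 it was 0.112, 0.048 and 0.163 in the second arm, against 0.517, 0.746 and 0.616 in the first arm. The authors' deposited table gives an FDR of 0.0034 at D0, 7.3e-11 at D4 and 5e-07 at D8, and the arms again did not overlap. The events of neighbouring exons share junction reads, so they are not independent of each other. The limma adjusted p at D0, D4 and D8 was 0.065, 0.048 and 0.018 for the 78-nt exon, and 0.17, 0.017 and 0.038 for the 87-nt exon.

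The corresponding pair of exons in COL13A1 moved the same way, most at D8. Inclusion of the 78-nt exon, measured against the junction from the 87-nt exon to the next, was 0.18, 0.295 and 0.171 in the second arm, against 0, 0 and 0 in the first arm at D0. At D4 it was 0.189, 0.211 and 0.222 in the second arm, against 0.026, 0.022 and 0.046 in the first arm. At D8 it was 0.772, 0.779 and 0.803 in the second arm, against 0.191, 0.167 and 0.123 in the first arm. The authors' deposited table gives an FDR of 7.4e-08 at D0 and 0 at D4 and D8, and the limma adjusted p was 0.013, 0.061 and 0.0044. The 87-nt exon, measured against the junction into the 78-nt exon, was 0.837, 0.83 and 0.701 in the second arm, against 0.842, 0.861 and 0.976 in the first arm at D4, not called. At D8 it was 0.052, 0.046 and 0.023 in the second arm, against 0.434, 0.323 and 0.445 in the first arm, called with an FDR of 0 in the authors' deposited table (limma adjusted p = 0.012). Measured against the junction that skips both exons, it averaged 0.635 in the second arm, beside 0.796 in the first at D4, and 0.491 in the second arm, beside 0.756 in the first at D8, both called. For these events the limma adjusted p was 0.5 at D4 and 0.12 at D8. The 36-nt exon of COL13A1 was included at 0.596, 0.596 and 0.647 in the second arm, against 0.308, 0.355 and 0.313 in the first arm at D8 (an FDR of 0 in the authors' deposited table, limma adjusted p = 0.066). It averaged 0.110 in the second arm, beside 0.119 in the first at D0 and 0.185 in the second arm, beside 0.177 in the first at D4, and was called on neither day.

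**Figure D4:**
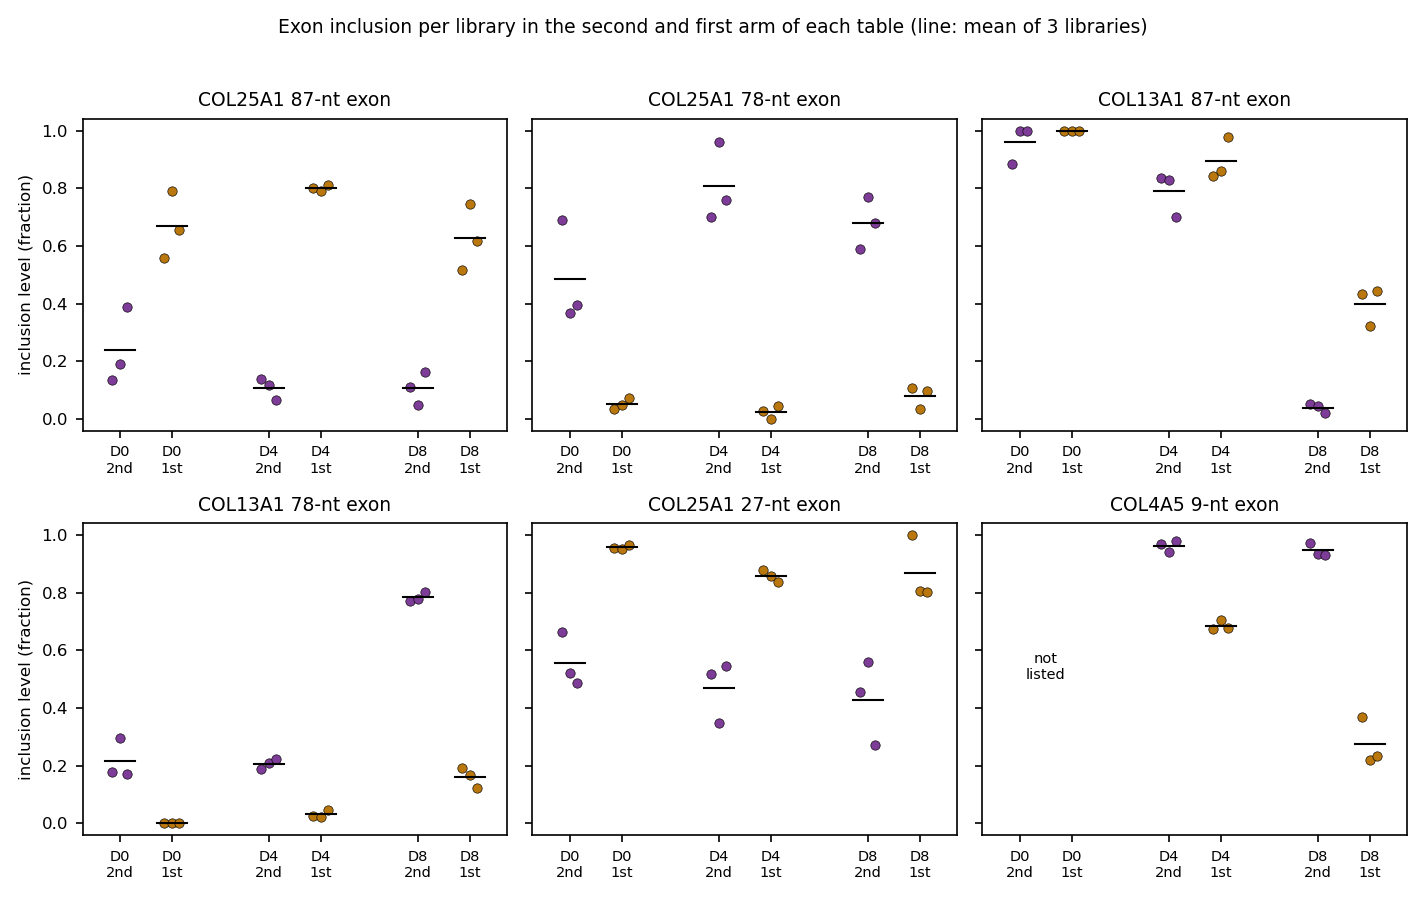
Inclusion level of 6 exons in each library (points) with the mean of 3 libraries (line), for the second arm (purple) left of the first arm (orange) of the D0, D4 and D8 tables, on an axis between 0 and 1. In COL25A1 the 78-nt exon is high and the 87-nt exon low in the second arm at each day. In COL13A1 the arms part most at D8, and the COL4A5 exon is not listed at D0.

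Other COL25A1 exons differed as well. The 27-nt exon, 3 Gly-X-Y repeats, was included at 0.664, 0.521 and 0.485 in the second arm, against 0.954, 0.95 and 0.965 in the first arm at D0. It averaged 0.470 in the second arm, beside 0.857 in the first at D4, and at 0.429 in the second arm, beside 0.869 in the first at D8, called in all 3 tables. In 293xT cells it averaged 0.438 in the second arm, beside 0.838 in the first, on a mean of 6.7 reads per library in the second arm, too few to be called (FDR of 0.12 in the authors' deposited table). The 24-nt exon, which holds no glycine codon, was included at 0.476, 0.596 and 0.67 in the second arm, against 0.116, 0.035 and 0.161 in the first arm at D0. At D8 it was 0.708, 0.801 and 0.708 in the second arm, against 0.244, 0.03 and 0.232 in the first arm. At D4 the means were closer, at 0.831 in the second arm, beside 0.581 in the first, and the event was called. For the 24-nt exon the limma adjusted p was 0.1 at D0, 0.6 at D4 and 0.1 at D8. That of the 27-nt exon was 0.019, 0.1 and 0.27. The 36-nt exon and the 81-nt exon next to it were included in full in the second arm at D8, with first-arm levels of 0.374, 0.469 and 0.462 for the 36-nt exon and 0.42, 0.549 and 0.535 for the 81-nt exon, both measured against the junction that skips the pair. Limma gave an adjusted p of 0.0013 for the 36-nt and 0.0017 for the 81-nt exon there. Measured against the junction that skips the 36-nt exon alone, that exon was included in full in the second arm, against 0.93, 0.815 and 0.944 in the first arm, and was not called (an FDR of 1 in the authors' deposited table). By limma, that event of the 36-nt exon alone was called (limma adjusted p = 0.045). A 45-nt exon averaged 0.764 in the second arm, beside 0.492 in the first at D8, called. A 54-nt exon averaged 0.968 in the second arm, beside 0.824 in the first at D0 and a 60-nt exon 0.981 in the second arm, beside 0.789 in the first at D0, both called in that table alone. In these calls the limma adjusted p was 0.22 for the 45-nt, 0.26 for the 54-nt and 0.2 for the 60-nt exon. Across the 9 COL25A1 exons, in the tables where each was called, the second arm held more of 7 and less of 2, the 87-nt and 27-nt exons. Where not called, the difference of the 45-nt exon was -0.14 at D0 and -0.08 at D4. That of the 60-nt exon was -0.034 at D4 and -0.007 at D8, not called.

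In COL4A5, which encodes a basement membrane chain, a 9-nt exon was included at 0.967, 0.94 and 0.98 in the second arm, against 0.674, 0.704 and 0.677 in the first arm at D4. At D8 it was 0.973, 0.933 and 0.931 in the second arm, against 0.37, 0.22 and 0.233 in the first arm. The arms did not overlap, the authors' deposited table gives an FDR of 0 on both days, and the limma adjusted p was 0.056 at D4 and 0.0067 at D8. The exon is not listed in the D0 and 293xT tables. The D4 and D8 tables are separate, and whether their arms are the same condition is not stated. A 115-nt exon of COL4A5, whose length is no multiple of 3, averaged 0.819 in the second arm, beside 0.972 in the first at D4 and was called there alone. Limma gave an adjusted p of 0.31. COL6A3 differed at a 603-nt exon, chr2:238296225-238296827, the longest exon called. Its inclusion was 0.913, 0.32 and 0.692 in the second arm, against 0.053, 0.048 and 0.143 in the first arm at D0 (an FDR of 5.9e-06 in the authors' deposited table, limma adjusted p = 0.18). It averaged 0.350 in the second arm, beside 0 in the first at D4 and 0.381 in the second arm, beside 0 in the first at D8, under the read minimum in at least 1 arm.

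The remaining COL13A1 calls were all at D8. An early 36-nt exon averaged 0.317 in the second arm, beside 0.181 in the first, and the 27-nt exon after it 0.533 in the second arm, beside 0.778 in the first. A 45-nt exon averaged 0.868 in the second arm, beside 0.498 in the first, and a 42-nt exon 0.700 in the second arm, beside 0.869 in the first. The second arm thus held more of the early 36-nt and the 45-nt exon, and less of the 27-nt and the 42-nt exon. The limma adjusted p was 0.29 for the early 36-nt, 0.3 for the 27-nt, 0.32 for the 45-nt and 0.17 for the 42-nt exon. In COL16A1 a 45-nt exon averaged 0.641 in the second arm, beside 0.824 in the first at D8, and a 91-nt form of the same exon 0.616 in the second arm, beside 0.774 in the first. Limma gave an adjusted p of 0.21 for the 45-nt exon and 0.39 for the 91-nt form. In COL23A1 a 27-nt exon averaged 0.762 in the second arm, beside 0.523 in the first at D0, and a 163-nt exon 0.136 in the second arm, beside 0.0127 in the first. The arms overlapped for the 163-nt exon (limma adjusted p = 0.49) but not for the 27-nt exon (limma adjusted p = 0.37). The 27-nt exon was not called at D4 or D8. In COL14A1 a 152-nt exon averaged 0.708 in the second arm, beside 0.974 in the first at D8, on a mean of 12.3 reads per library in the second arm. Its arms overlapped, at 1, 0.625 and 0.5 in the second against 1, 1 and 0.923 in the first (limma adjusted p = 0.54). Of the 24 exons called, 21 matched a coding transcript, 20 have a length that is a multiple of 3, 13 a multiple of 9, and 15 begin with a glycine codon.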

How the data were processed

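The authors deposited 1 table of counts per gene for the 18 whole-cell libraries, 1 for the 6 nuclear libraries and 4 skipped-exon tables. Both count tables hold whole-number counts of reads as deposited. The submitters' processing notes name the hg19 build and the tools STAR, featureCounts, UMI-tools, cutadapt and DESeq, without versions or order. The kits keep strand, per the labels' protocols, but whether counting used it is not stated there. The skipped-exon tables have the layout of rMATS, and in them the authors deposited junction reads, inclusion levels, a difference that is a score between -1 and 1, and a p-value with its FDR per event. The sign of that score was turned so that it reads second minus first arm.

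Counts were fitted with edgeR 4.0.16 in R 4.3.3 (filterByExpr, TMM, quasi-likelihood, 1 mean per group), in 1 fit over the 18 whole-cell libraries and 1 over the 6 nuclear libraries, with Benjamini-Hochberg adjustment over all genes tested. DESeq2 1.42.0, total counts, no low-count filter, a replicate block, the day alone and leaving out each library were alternatives. Inclusion was tested again with limma 3.58.1 on its logit, with levels bounded at 0.01 and events between 0.02 and 0.98, a range chosen after seeing the data. The edgeR and limma steps were tested on simulated data. Collagen genes with a mean of at least 5 CPM in 1 or more groups, which are all but COL10A1, are named with their values, as are up to 4 genes of the related list in each direction with at least 10 CPM. The collagen genes, the related list and the markers were chosen with earlier results of these data known. Exon sequences are from GENCODE v29 transcripts and the promoter from RefSeq. Reads of near-identical or overlapping genes were not checked here, and an antisense gene can add reads where strand was not used.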

Additional observations from a re-analysis of the deposited data

Results flagged for a closer look

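The KO effect, the log2 fold change of KO against WT, changed between days for many collagen genes by edgeR's test of the difference itself. From D0 to D4 it was called for 21 genes, or 48.8% of the collagen genes tested, beside 39.1% of all genes. From D4 to D8 it was called for 20, or 46.5%, beside 41.5% of all genes. A positive value means that the KO effect was higher on the later day, and the causes were not tested.

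Between D0 and D4, the effect moved most towards lower in COL12A1 (-2.03), COL9A3 (-1.56) and COL1A2 (-1.50). Smaller shifts of the same sign were those of COL2A1 (-0.99), COL1A1 (-0.88), COL14A1 (-0.83), COL5A3 (-0.76), COL18A1 (-0.56), COL6A1 (-0.51) and COL9A1 (-0.38). It moved towards higher in COL23A1 (1.75) and COL25A1 (1.36), both transmembrane collagens, and in COL13A1 (0.59). The type IV genes COL4A6 (1.33), COL4A4 (1.19), COL4A3 (1.14) and COL4A5 (0.69) moved the same way, as did COL22A1 (0.68), COL9A2 (0.61), COL5A1 (0.55) and COL5A2 (0.50). The call of COL4A3 was lost without D0 WT library 1 (0.95), that of COL9A2 without D0 WT library 2 (0.48), and that of COL9A1 in 7 of the 12 omissions of a library (-0.39 to -0.30). COL6A3, COL6A6, COL7A1, COL20A1 and COL27A1 were not called with all libraries but were with 1 left out.

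Between D4 and D8, the effect rose most in COL3A1 (3.31). The main type VI chains followed, with COL6A3 at 1.56, COL6A1 at 1.18 and COL6A2 at 1.08, then COL11A1 (1.02), COL18A1 (0.94), COL14A1 (0.91), COL13A1 (0.90), COL24A1 (0.74), COL1A2 (0.56) and COL4A2 (0.49). It fell most in COL6A5 (-3.48), COL6A6 (-2.07) and COL21A1 (-1.70), then in COL19A1 (-1.10), COL8A2 (-0.85), COL17A1 (-0.82), COL26A1 (-0.77), COL25A1 (-0.70) and COL9A2 (-0.65). The COL6A5 value rests on whole-cell D8 levels that were all under 1 CPM. The call of COL19A1 was lost in 3 omissions of a library (-0.97 to -0.82), and COL4A4, COL5A1, COL9A3, COL16A1 and COL23A1 were not called with all libraries but were with 1 left out.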

How the results depend on the processing

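Counts of called collagen genes moved by less than 1.5 times under each whole-cell alternative. DESeq2, total counts and no filter gave 21, 18 and 22 genes at D0 (19 as reported), 27, 29 and 30 at D4 (29), and 31, 31 and 33 at D8 (31). In nuclear RNA, DESeq2 called 22, total counts 39 and no filter 30, against 36, and the cause was not tested. With total counts, COL27A1 in nuclear RNA turned to -0.05066, and the median log2 fold change of all genes moved to -0.72 in nuclear RNA, beside -0.27 as reported, to -0.12 at D8, beside 0.01, and to 0.33 for KO at D4 against D0, beside 0.12. Of all genes called, total counts put 73.8% higher in KO at D4, beside 57.6% as reported, 37.6% at D8, beside 52.9%, and 25.6% in nuclear RNA, beside 48.7%, where DESeq2 put 90.8%. For the change of the KO effect the share towards higher was 62.9% between D0 and D4, beside 51.1%, and 24.9% between D4 and D8, beside 47.2%. Leaving out each library gave 16 to 19 called genes at D0, 21 to 25 at D4, 28 to 33 at D8 and 35 to 39 in nuclear RNA. It gave 37 to 40 for WT at D4 against D0, 38 to 40 at D8 against D4, and in KO 40 to 41 and 39 to 41. For the change of the KO effect it gave 20 to 24 between D0 and D4 and 19 to 23 between D4 and D8. A replicate block gave 20, 27, 31 and 36 genes at D0, D4, D8 and in nuclear RNA, and samples with the same number had correlations of their deviations of -0.167 to 0.141, so that they were taken to share only a number. The block kept 18 of 19 calls at D0, 26 of 29 at D4, 29 of 31 at D8 and all 36 in nuclear RNA, without COL2A1 at D0 (0.32), COL6A1 (-0.25), COL6A2 (0.20) and COL17A1 (0.35) at D4, and COL4A4 (0.38) and COL17A1 (-0.44) at D8. Exon calls depended on the test and limits. At D0, 13 became 8 with 20 reads, 2 with limma, and 1 to 2 with limma and a library left out, not all of these last among the 13. At D4, 11 became 7 with a difference of 0.2, 2 with limma and 0 to 0 with a library left out. At D8, 21 became 9 with limma, of which 8 were among the 21, and 4 to 7 with a library left out. The cause was not tested. In 293xT cells none was called under these alternatives.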
